A study of Mus musculus with 12 samples.

Results

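Semaphorins, plexins and neuropilins form the ligands, receptors and co-receptors of a guidance system, and their RNA was measured in brains at 14 d post-stroke. Members were chosen by gene symbol: semaphorins of classes 3 to 7, plexins of classes A to D, and the neuropilins *Nrp1* and *Nrp2*. The symbols matched 31 of the 49315 genes listed, 20 semaphorins, 9 plexins and 2 neuropilins, and all 31 passed the filter on low counts and were among the 20290 genes tested. The symbol rule also asked for 2 plexin domain-containing genes under a spelling that matched no gene, so *Plxdc1* and *Plxdc2* are not members. The mice fell into 2 groups of 6. Male CD45.1 recipients aged 8 to 12 weeks were irradiated with the head shielded, given a mixed BM transplant, and subjected 8 to 10 weeks later to 30 min of middle cerebral artery occlusion (MCAO). Of the transplanted BM cells, 10% came from CD45.2 donors that were WT or *Tet2*-KO, and 90% came from CD45.1 *Tet2*-sufficient mice in both groups. The deletion was therefore carried only by some of the blood cells, and the cells of the recipient's brain kept *Tet2*. The question was whether a *Tet2*-KO blood compartment, a model of clonal hematopoiesis, altered the brain's response to stroke. No brain without stroke was among these samples, so an altered response and a difference present before stroke cannot be told apart.

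Semaphorins are ligands first known for steering growing axons. Class 3 members are secreted, those of classes 4 to 6 span the membrane, and *Sema7a* encodes a lipid-anchored form. Plexins are their signalling receptors and carry a cytoplasmic GTPase-activating domain. Most class 3 ligands bind neuropilins, which hold the ligand while a plexin of class A signals, and neuropilins also bind vascular endothelial growth factors. In the adult nervous system the family is known for roles in blood vessels, immune cells, glia and the response to injury.

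The sequences just before the RefSeq start sites of *Nrp1*, *Nrp2* and *Plxna2* are shown because the neuropilins were lower together and *Plxna2*, a plexin that works with them, was on the opposite side. They are RefSeq sequences of GRCm38.p6, the + strand, from 250 to 51 bases before each RefSeq start, at chr8:128358823-128359022, chr1:62703067-62703266 and chr1:194619579-194619778. The GENCODE gene spans given with each gene start elsewhere: the windows of *Nrp1* and *Plxna2* begin 219 and 1361 bases after the GENCODE start, inside retained-intron transcripts, while that of *Nrp2* lies before it. Capitals mark each match to GGGCGG, the GC box, on either strand, and overlapping matches run together.
Nrp1: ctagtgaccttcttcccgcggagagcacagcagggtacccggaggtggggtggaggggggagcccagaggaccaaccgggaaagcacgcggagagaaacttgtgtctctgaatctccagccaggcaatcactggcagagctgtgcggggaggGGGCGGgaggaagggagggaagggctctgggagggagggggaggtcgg
Nrp2: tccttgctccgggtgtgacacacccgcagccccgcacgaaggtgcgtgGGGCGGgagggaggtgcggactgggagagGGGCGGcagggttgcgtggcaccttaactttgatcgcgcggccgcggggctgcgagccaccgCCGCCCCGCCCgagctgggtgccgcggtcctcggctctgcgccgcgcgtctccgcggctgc
Plxna2: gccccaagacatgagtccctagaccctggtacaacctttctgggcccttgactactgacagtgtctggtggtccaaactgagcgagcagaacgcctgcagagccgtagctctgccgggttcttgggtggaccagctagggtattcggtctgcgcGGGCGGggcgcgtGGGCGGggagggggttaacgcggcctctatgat
The window of *Nrp1* held 1 match and 9 CpG dinucleotides. That of *Nrp2* held 4 matches and 28 CpG dinucleotides, and that of *Plxna2* held 2 and 13. Of the 32851 windows of this length in the table, 24.6% held a match, and the median window had 4 CpG dinucleotides. RefSeq windows were found for 26 members, and 19 of their 37 windows held a match. The genes shown were chosen by their results, these letters are a description of the sequence, and no binding was measured.

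The labels gave the genotype of each mouse, although the treatment entry was the same, with control stem cells, in both groups. The RNA was from brain, which the authors describe as whole brains in one place and as whole hemispheres in another. There were 12000261 to 15340787 counts in the WT group and 12625047 to 21049763 in the *Tet2*-KO group. Levels are given as CPM, a gene's count relative to its TMM-scaled library size. *Tet2* was at 126 to 147 CPM in WT and 117 to 137 CPM in *Tet2*-KO mice and does not check the labels, since only some blood cells lacked it. The labels give each library as a separate brain, and p-values set the group difference against the spread between these mice. The neuronal list summed to 3805 to 5429 CPM in WT and 4962 to 6566 CPM in *Tet2*-KO mice, and none of its genes was at 0, so the labelled tissue's markers were present. WT replicate 2 and *Tet2*-KO replicate 5 stood apart from their groups in several marker lists. The remaining lists not described beside a gene were as follows: 1 of 7 striatal, 1 of 6 astrocyte and 1 of 3 red blood cell genes were higher and 1 of 5 thalamic and 1 of 5 choroid plexus genes lower with an unadjusted p below 0.05, and 0 hypothalamic, cerebellar or olfactory bulb genes passed. All 4 tested neutrophil genes, the 1 tested B cell gene and 2 of 5 oligodendrocyte precursor genes were lower, and 2 of the neutrophil genes passed edgeR's adjusted threshold. The activated phagocyte list (*Spp1*, *Gpnmb*, *Cd68* and others) reached 2044 CPM in WT replicate 2, against 835 to 1222 CPM in the other WT mice. It reached 1265 CPM in *Tet2*-KO replicate 5, against 59.7 to 458 CPM in the other *Tet2*-KO mice.

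Across the family, 10 of 31 members had an unadjusted p below 0.05, 6 of them lower and 4 higher in the *Tet2*-KO group. The lower members were both neuropilins, *Sema3b*, *Sema4c*, *Sema4d* and *Plxnb2*. The higher members were *Plxna2*, *Sema6b*, *Sema4f* and *Sema5a*. The differences were small. The higher members ran from 1.10-fold for *Sema5a* to 1.16-fold for *Sema4f*, and the lower from 0.838-fold for *Nrp2* to 0.665-fold for *Nrp1*. With edgeR's quasi-likelihood test and Benjamini-Hochberg adjustment over all genes tested, 0 members had an adjusted p below 0.05, and the smallest adjusted p was 0.112, for *Nrp1*.

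The background was high. Of all genes tested, 23.1% had an unadjusted p below 0.05, 12.2% lower and 10.8% higher, beside 32.3% of the members. With upper quartile scaling, which shifted the all-gene median upward from 0.01 to 0.04 on the log2 scale, 2129 genes were lower and 3009 higher in place of 2477 and 2201. Under it 6 members were lower and 4 higher. An adjusted p below 0.05 was reached by 0.0246% of all genes, and 1.09% of all genes had groups whose CPM ranges did not overlap. No member had groups that did not overlap. The median log2 fold change of the 31 members was -0.02, beside 0.01 for all genes, and 17 members were lower and 14 higher by sign.

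**Figure D1:**
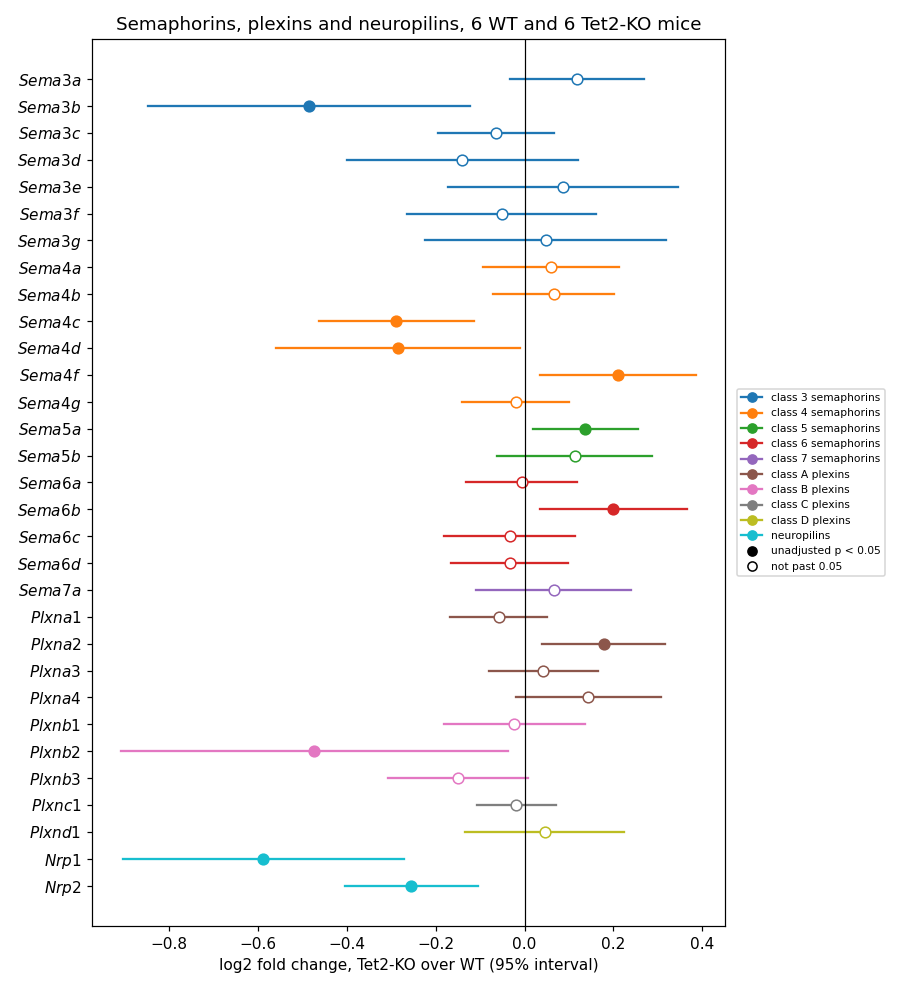
Log2 fold change of each of the 31 members, *Tet2*-KO over WT, with 95% intervals from edgeR on 6 mice per group, coloured by class; filled points have an unadjusted p below 0.05. The 6 filled points left of 0 run from -0.59 (*Nrp1*) to -0.25 (*Nrp2*), and the 4 right of 0 run from 0.14 (*Sema5a*) to 0.21 (*Sema4f*).

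Other tests called a few members. The DESeq2 Wald test called 4.25% of the genes with an adjusted p, and 3 members: *Nrp1* (adjusted p = 0.00723), *Nrp2* (adjusted p = 0.0371) and *Sema4c* (adjusted p = 0.0454). limma-voom with quality weights called 9.18% of all genes and the same 3 members, with adjusted p = 0.0119, 0.0188 and 0.0351 in that order. Without *Tet2*-KO replicate 5, edgeR called 11.0% of genes and 5 members, which added *Plxna2* (adjusted p = 0.0463) and *Sema6b* (adjusted p = 0.0377) to these. Of the fits that left out 1 mouse, which called from 0 to 5 members, this one called the most. Without both WT replicate 2 and *Tet2*-KO replicate 5, a setting chosen after the data were seen, edgeR called 7.59% of genes and, of the members, *Nrp1* and *Nrp2*.

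Both neuropilins were lower in *Tet2*-KO mice, and for each gene 5 of the 6 values lay under the whole WT range. *Nrp1* (ENSMUSG00000025810, chr8:128358604-128503363) encodes the co-receptor of *Sema3a* and a co-receptor of VEGF-A on endothelial cells, and it is also expressed by some macrophages and T cells. Its level was 83.6 to 111 CPM in WT (median 93.3) and 51.3 to 97.2 CPM in *Tet2*-KO mice (median 57.9). The ranges overlapped through *Tet2*-KO replicate 5 alone, at 97.2 CPM, while the other *Tet2*-KO mice were at 51.3 to 62.1 CPM. The mean was 94.7 ± 10.1 CPM (SD, n = 6) in WT and 63.05 ± 17.2 CPM (SD, n = 6) in *Tet2*-KO. The fitted log2 fold change was -0.59 (SE 0.15), with an unadjusted p of 0.0016 in edgeR. Without *Tet2*-KO replicate 5 it was -0.75 (SE 0.08), and the edgeR adjusted p was 0.000262. That fit left out the mouse that overlapped the WT range, and was singled out after the values were seen. Leaving out any other single mouse gave edgeR adjusted p-values from 0.092 to 0.23.

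*Nrp2* (ENSMUSG00000025969, chr1:62703285-62818695) encodes the co-receptor of *Sema3f* and of VEGF-C in lymphatic vessels. It was at 91.5 to 114 CPM in WT (median 98.9) and at 71.75 to 97.4 CPM in *Tet2*-KO mice (median 82.9). The highest *Tet2*-KO mouse was again replicate 5, and the lowest was replicate 1. On the log2 scale the difference was -0.25 (SE 0.07, edgeR unadjusted p = 0.00244, adjusted p = 0.115), and the interval from -0.40 to -0.11 overlapped that of *Nrp1*, from -0.91 to -0.27. Whether the neuropilins differed in size of change was not tested.

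Markers of several other cell types were lower beside the neuropilins. All 7 monocyte and macrophage markers were lower with an unadjusted p below 0.05, and their summed level was 368 to 968 CPM in WT and 27.8 to 482 CPM in *Tet2*-KO mice, 482 CPM being *Tet2*-KO replicate 5. Of the activated phagocyte markers, 5 of 6 were lower, at 835 to 2044 CPM in WT and 59.7 to 1265 CPM in *Tet2*-KO mice. Of the pericyte and fibroblast markers, 5 of 7 were lower, at 599 to 1207 CPM and 217 to 731 CPM, with replicate 5 again the highest. Endothelial markers differed less: 2 of 7 were lower, with sums of 268 to 301 CPM and 245 to 284 CPM. Of the homeostatic microglia markers 1 of 8 was lower, and of the reactive astrocyte markers 3 of 6. None of these markers was at 0 in every mouse. In RNA from whole tissue, fewer cells of a type and less RNA per cell cannot be told apart, and the part of these cells in the neuropilin values was not tested.

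**Figure D2:**
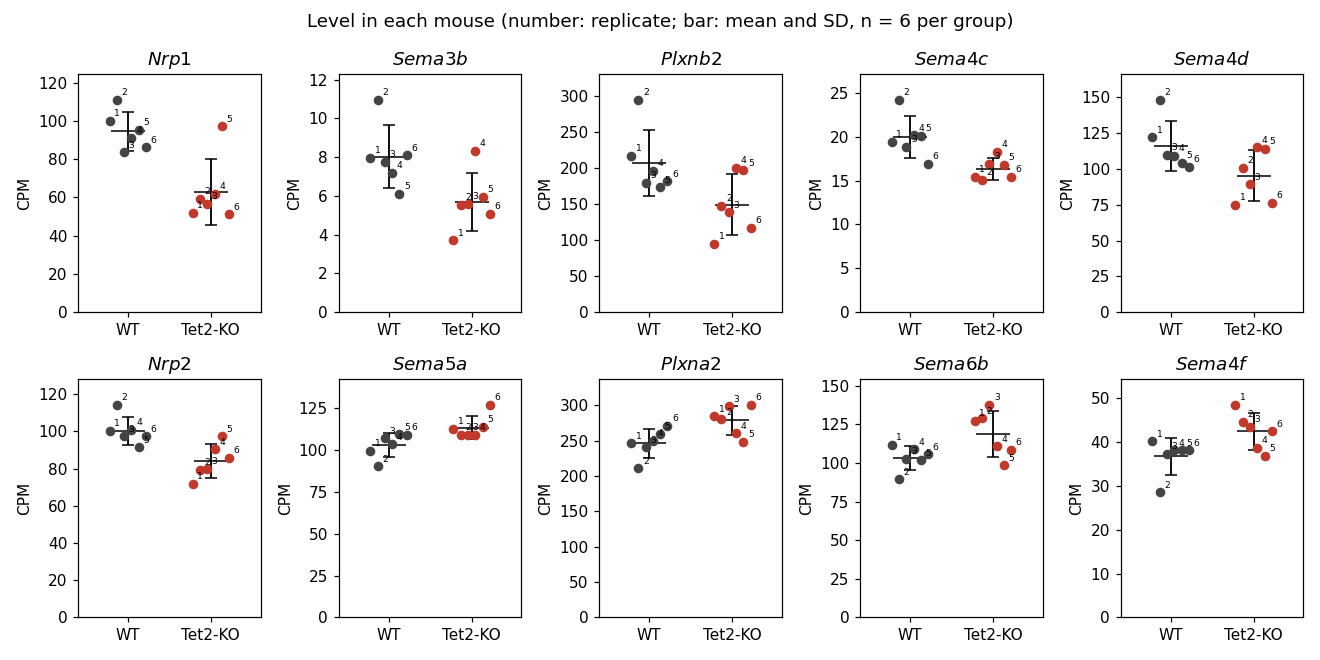
CPM in each of the 12 mice for the 10 members with an unadjusted p below 0.05, ordered by fold change; numbers are replicates, bars are means with SD of 6 mice, and axes start at 0. *Nrp1* in *Tet2*-KO replicate 5 (97.2 CPM) sits among the WT mice, and WT replicate 2 is highest for *Plxnb2* (296 CPM) and lowest for *Sema4f* (28.5 CPM).

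Among the 7 secreted class 3 semaphorins, *Sema3b* was lower and the other 6 did not pass an unadjusted p of 0.05. *Sema3b* (ENSMUSG00000057969, chr9:107597674-107609229), a ligand of neuropilin receptors, was at 6.10 to 10.97 CPM in WT (median 7.86) and 3.72 to 8.33 CPM in *Tet2*-KO mice (median 5.56). *Tet2*-KO replicate 4 was the highest of its group, and the other 5 were below every WT mouse. edgeR gave a log2 fold change of -0.49 (SE 0.17, unadjusted p = 0.0121, adjusted p = 0.137). Leaving out *Tet2*-KO replicate 4 gave -0.64, and leaving out WT replicate 2 gave -0.37.

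The neuropilin ligand best known for repelling axons, *Sema3a*, was at 28.7 ± 2.96 CPM in WT and 31.1 ± 2.10 CPM in *Tet2*-KO mice (SD, n = 6), with a 95% interval of the log2 fold change from -0.03 to 0.27. *Sema3f*, the main ligand of *Nrp2*, was at 14.7 ± 1.09 and 14.1 ± 2.31 CPM (interval -0.26 to 0.16). *Sema3c*, which acts on vessels and the heart in development, had the highest level per length of the class. It was at 26.5 to 29.3 CPM in WT (median 27.2) and at 24.0 to 29.0 CPM in *Tet2*-KO mice (median 26.3). *Sema3d* was at 16.1 ± 2.14 and 14.6 ± 2.75 CPM (interval -0.40 to 0.12). *Sema3e*, which binds plexin D1 without a neuropilin, was at 32.2 ± 4.83 and 34.2 ± 5.42 CPM (interval -0.17 to 0.35), and *Sema3g* at 5.69 ± 0.695 and 5.87 ± 1.07 CPM (interval -0.22 to 0.32). The median of the class was -0.05, and its summed level was 126 to 138 CPM in WT and 124 to 135 CPM in *Tet2*-KO mice.

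The 6 class 4 semaphorins divided: *Sema4c* and *Sema4d* were lower, *Sema4f* was higher, and 3 did not pass an unadjusted p of 0.05. *Sema4c* (ENSMUSG00000026121, chr1:36548639-36558349), a ligand of plexin B2, was at 16.9 to 24.2 CPM in WT (median 19.8) and 15.1 to 18.3 CPM in *Tet2*-KO mice (median 16.1). Of the *Tet2*-KO values, 4 were under the whole WT range and the other two lay inside it. The fitted difference was a log2 fold change of -0.29 (SE 0.08, edgeR unadjusted p = 0.00309, adjusted p = 0.118). Of its exon bases, 7.27% lie opposite exons of *D430040D24Rik*, and reads of the 2 genes cannot be told apart there without strand.

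*Sema4d* (ENSMUSG00000021451, chr13:51685529-51793747), also called CD100, is made by oligodendrocytes and lymphocytes and binds plexin B1 and CD72. It had the highest level per length of the class, at 101 to 148 CPM in WT (median 110) and 74.9 to 115 CPM in *Tet2*-KO mice (median 94.99). *Tet2*-KO replicates 4 and 5 lay within the WT range. Its log2 fold change was -0.28 (SE 0.13, edgeR unadjusted p = 0.0434, adjusted p = 0.204), and an unadjusted p below 0.05 was kept in 5 of the 12 fits that left out 1 mouse. It was -0.20 without WT replicate 2. Oligodendrocyte markers did not share the direction (0 of 8 past the unadjusted threshold, at 4976 to 6509 and 4672 to 6482 CPM). Of the tested T cell markers, 4 of 4 were lower, with sums of 11.4 to 17.4 and 6.42 to 11.4 CPM, and the part of these cells in the *Sema4d* value was not tested.

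*Sema4f* (ENSMUSG00000000627, chr6:82911885-82939769), a membrane semaphorin found at glutamatergic synapses, was at 28.5 to 40.2 CPM in WT (median 38.1) and 36.9 to 48.5 CPM in *Tet2*-KO mice (median 43.0). Here 4 *Tet2*-KO mice were above every WT mouse. Its log2 fold change was 0.21 (SE 0.08, edgeR unadjusted p = 0.0227, adjusted p = 0.162) and 0.15 without WT replicate 2. *Sema4a*, which acts on T cells and in the retina, was at 43.0 ± 2.19 and 44.8 ± 5.44 CPM (SD, n = 6). *Sema4b* was at 30.7 ± 1.72 and 32.1 ± 2.78 CPM, and *Sema4g* at 48.9 ± 2.93 and 48.1 ± 3.35 CPM.

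In classes 5 to 7, *Sema5a* and *Sema6b* were higher and no member was lower past the unadjusted threshold. *Sema5a* (ENSMUSG00000022231, chr15:32244810-32696341), which carries thrombospondin repeats and binds plexin B3, was at 90.4 to 109 CPM in WT (median 105) and 109 to 127 CPM in *Tet2*-KO mice (median 111). The groups met at 109 CPM, and 3 *Tet2*-KO mice were above every WT mouse. The fitted log2 fold change was 0.14 (SE 0.06, edgeR unadjusted p = 0.026, adjusted p = 0.169), and 0.10 without WT replicate 2. *Sema5b* was at 20.5 ± 1.63 CPM in WT and 22.2 ± 2.65 CPM in *Tet2*-KO mice (SD, n = 6), with an interval from -0.06 to 0.29.

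*Sema6b* (ENSMUSG00000001227, chr17:56123085-56140343), a transmembrane ligand of class A plexins, was at 89.4 to 112 CPM in WT (median 104) and 98.5 to 138 CPM in *Tet2*-KO mice (median 119). *Tet2*-KO replicates 1, 2 and 3 were above every WT mouse, and the other 3 were within the WT range. On the log2 scale the difference was 0.20 (SE 0.08, edgeR unadjusted p = 0.0211, adjusted p = 0.159). *Sema6a*, a ligand of plexins A2 and A4, was at 95.6 ± 7.76 and 95.1 ± 5.98 CPM (interval -0.13 to 0.12). *Sema6c* was at 22.1 ± 0.901 and 21.5 ± 2.16 CPM (interval -0.18 to 0.11). *Sema6d*, a ligand of plexin A1, was at 156 ± 14.5 and 153 ± 9.36 CPM (interval -0.17 to 0.10). *Sema7a*, which binds plexin C1 and β1 integrins, was at 103 to 128 CPM in WT (median 114) and at 105 to 142 CPM in *Tet2*-KO mice (median 115).

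Neuron and cortex markers were higher beside *Sema4f*, *Sema5a* and *Sema6b*: 7 of 8 neuronal and 4 of 5 cortical genes had an unadjusted p below 0.05 and were higher in *Tet2*-KO mice. The neuronal sum was 3805 CPM in WT replicate 2 and 4931 to 5429 CPM in the other WT mice. The cortical sum was 324 to 440 CPM in WT and 396 to 547 CPM in *Tet2*-KO mice. The part of neuronal content, or of the brain regions sampled, in these levels was not tested.

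The plexins were also on both sides, with *Plxna2* higher, *Plxnb2* lower and 7 of 9 not past an unadjusted p of 0.05. *Plxna2* (ENSMUSG00000026640, chr1:194618218-194816869), a receptor of *Sema6a* and, with neuropilins, of class 3 ligands, was at 211 to 271 CPM in WT (median 248) and 248 to 301 CPM in *Tet2*-KO mice (median 282). Of the *Tet2*-KO mice, 4 were above every WT mouse, and replicates 4 and 5 were within the WT range. edgeR gave a log2 fold change of 0.18 (SE 0.07, edgeR unadjusted p = 0.0151, adjusted p = 0.146), and its unadjusted p stayed below 0.05 in each of the 12 fits that left out 1 mouse. *Plxna4*, which works with *Nrp1* in sensory and sympathetic neurons, was at 221 ± 25.8 and 244 ± 16.9 CPM (SD, n = 6, interval -0.02 to 0.31). *Plxna1* had the highest level per length of class A, at 168 to 198 CPM in WT (median 177) and 162 to 183 CPM in *Tet2*-KO mice (median 176). Of its exon bases, 10.7% lie opposite exons of *Gm26811*. *Plxna3*, which works with *Nrp2*, was at 45.3 ± 2.79 and 46.6 ± 3.31 CPM.

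*Plxnb2* (ENSMUSG00000036606, chr15:89155549-89180788), a receptor of class 4 semaphorins that is expressed in neural precursors and in macrophages, was at 174 to 296 CPM in WT (median 189) and 95.4 to 201 CPM in *Tet2*-KO mice (median 143). The highest value, 296 CPM, was that of WT replicate 2, and *Tet2*-KO replicates 4 and 5 were the highest of their group and lay within the WT range. The fitted difference was a log2 fold change of -0.47 (SE 0.20, edgeR unadjusted p = 0.0356, adjusted p = 0.188). It was -0.35 without WT replicate 2, and an unadjusted p below 0.05 was kept in 6 of the 12 fits that left out 1 mouse. The phagocyte and macrophage sums given beside the neuropilins were highest in WT replicate 2 and, of the *Tet2*-KO mice, in replicate 5. In *Tet2*-KO replicate 4, the highest for *Plxnb2*, they were 458 and 212 CPM, against 1265 and 482 CPM in replicate 5. Sums highest in WT replicate 2 and *Tet2*-KO replicate 4, as *Plxnb2* was, came from several lists. These were reactive astrocytes, homeostatic microglia, oligodendrocyte precursors, endothelial cells, T cells, thalamus, hypothalamus and choroid plexus. The part of any of these in the *Plxnb2* values was not tested.

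*Plxnb1*, the receptor of *Sema4d*, was at 139 ± 12.8 and 137 ± 15.1 CPM (SD, n = 6, interval -0.18 to 0.14). *Plxnb3*, the receptor of *Sema5a*, was at 63.3 ± 5.24 and 57.0 ± 6.28 CPM (interval -0.31 to 0.01). *Plxnc1*, the receptor of *Sema7a*, was at 89.9 to 99.8 CPM in WT (median 95.8) and 88.4 to 96.5 CPM in *Tet2*-KO mice (median 94.9) (interval -0.11 to 0.07). *Plxnd1*, the receptor of *Sema3e* in endothelial cells, was at 101 to 125 CPM in WT (median 115) and 96.9 to 136 CPM in *Tet2*-KO mice (median 119). Over the 4 class A plexins the median log2 difference was 0.09, over the 3 class B plexins it was -0.15, and the difference between the classes was not tested.

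**Figure D3:**
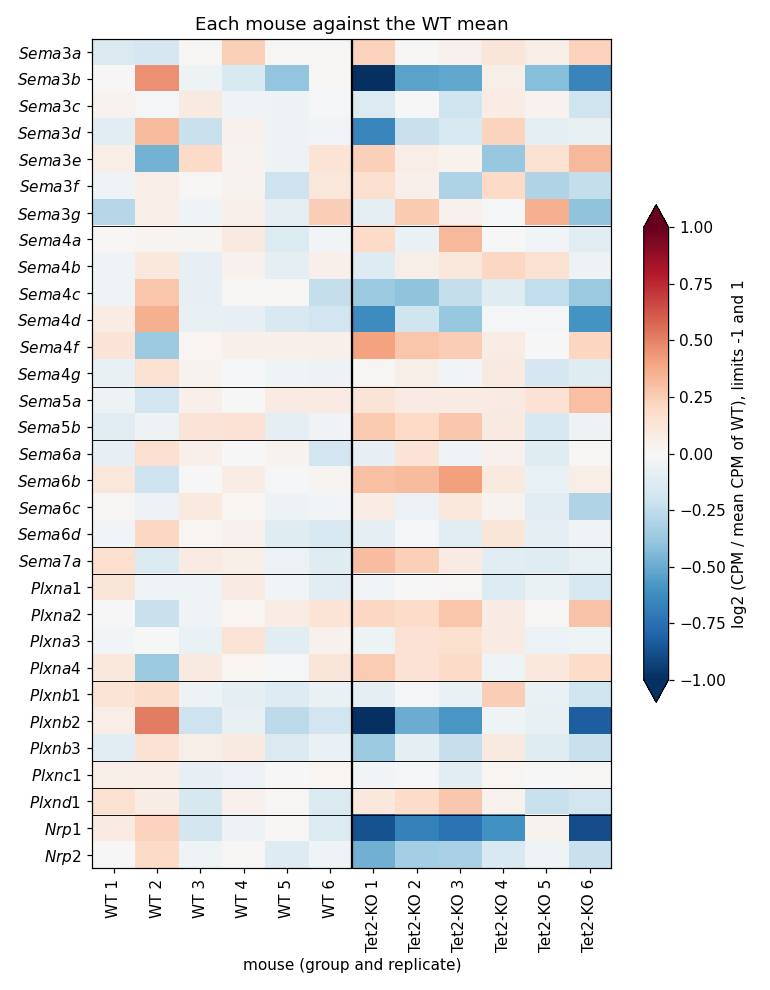
Log2 ratio of each mouse's CPM to the mean of the WT mice for the 31 members, grouped by class, with WT mice left and *Tet2*-KO mice right of the line. *Nrp1*, *Plxnb2* and *Sema3b* are the bluest rows in *Tet2*-KO mice, and *Nrp1* in replicate 5 is not blue.

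Per kilobase of exon, the levels in WT mice spanned 27.6-fold, from *Sema3g* at 1.25 to *Sema7a* at 34.6 CPM per kb. *Sema7a* was followed by *Plxnb2* at 26.9, *Sema6b* at 26.0 and *Plxna1* at 20.02 CPM per kb. The secreted class 3 ligands lay between 1.25 and 3.86 CPM per kb, with *Sema5b* at 2.90 and *Sema6c* at 3.72 CPM per kb in the same range, and every plexin was above 5.7 CPM per kb. Many neighbours in this order were not distinct: of 30 neighbouring pairs, 6 were farther apart than the sum of their SDs. *Nrp1* was at 9.68 CPM per kb in WT and 6.44 in *Tet2*-KO mice, and *Nrp2* at 8.47 and 7.10 CPM per kb. In WT mice *Nrp1* was therefore the higher neuropilin per length, and in *Tet2*-KO mice *Nrp2* was, but both gaps lay within the sum of the SDs.

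**Figure D4:**
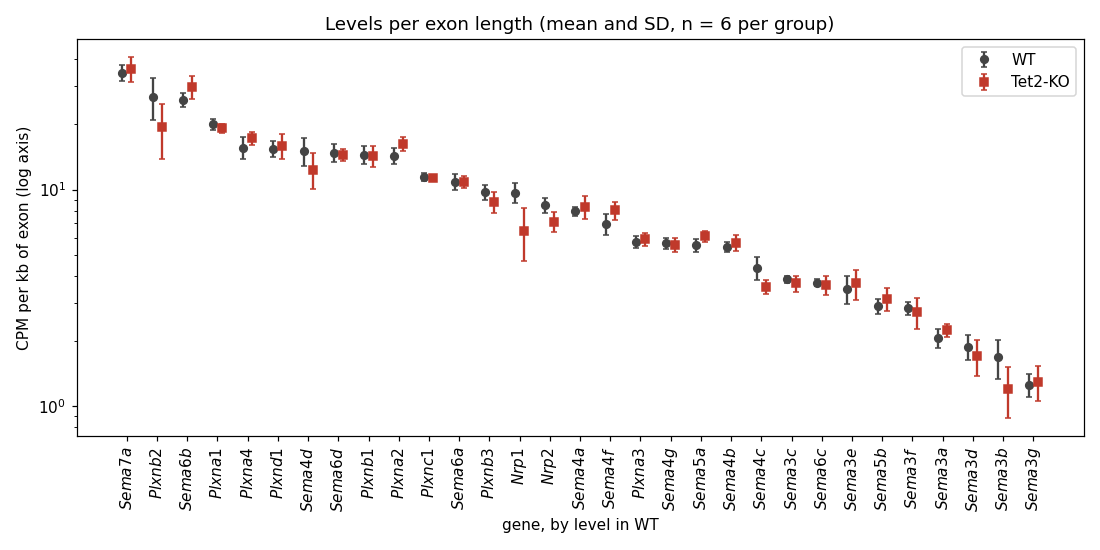
CPM per kb of exon on a log axis for each member, ordered by the WT mean, with SD of 6 mice per group (circles WT, squares *Tet2*-KO). Levels run from 34.6 CPM per kb (*Sema7a*) to 1.25 CPM per kb (*Sema3g*) in WT, and *Nrp1* shows the widest gap between the groups.

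Partner genes of the pathway, 45 in 7 lists, were found on both sides. Of the 44 tested, 10 were lower and 10 were higher with unadjusted p-values below 0.05 (45.5%, beside 23.1% of all genes), and 0 passed edgeR's adjusted threshold. The median log2 fold change of the partners was 0.03. *Timd2*, a receptor for a class 4 semaphorin, was at 0 in every mouse.

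Among the receptors that act with or beside plexins, 3 of the 10 with the smallest p were lower. *Itgb1*, β1 integrin and a receptor of *Sema7a*, was at 83.9 to 130 CPM in WT (median 88.2) and 52.9 to 91.6 CPM in *Tet2*-KO mice (median 66.6), a log2 fold change of -0.45 (SE 0.15). *Itga1*, the α1 subunit that pairs with it, was at 22.9 ± 4.18 and 17.2 ± 3.92 CPM, a log2 fold change of -0.41 (SE 0.15). *Kdr*, the VEGF receptor that signals with *Nrp1* on endothelial cells, was at 17.5 to 28.3 CPM (median 22.3) and 13.7 to 20.9 CPM (median 16.9), a log2 fold change of -0.39 (SE 0.12). *Flt1* and *Vegfa* were in the same list and did not pass an unadjusted p of 0.05. In the list of co-receptors and other receptors, 4 genes were lower and 3 higher with an unadjusted p below 0.05. The higher ones were *L1cam*, *Nrcam* and *Chl1*, with log2 fold changes of 0.17, 0.20 and 0.12.

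Of the cytoplasmic partners, *Dpysl3*, a collapsin response mediator that binds the cytoskeleton, was at 88.3 ± 10.2 and 73.7 ± 5.82 CPM, a log2 fold change of -0.26 (SE 0.07). *Mical1*, an oxidoreductase that takes actin filaments apart downstream of plexins, was at 18.2 ± 3.68 and 12.7 ± 2.95 CPM, a log2 fold change of -0.53 (SE 0.16). For *Rhod*, a small GTPase at 2.27 ± 0.925 and 1.35 ± 0.428 CPM, the log2 fold change was -0.76 (SE 0.28), and no *Tet2*-KO value was under the WT range. The higher ones were *Ranbp9*, a scaffold, at 0.14 (SE 0.04), *Cdk5*, a neuronal kinase of the *Sema3a* pathway, at 0.13 (SE 0.05), and *Farp1*, an exchange factor that binds plexins, at 0.15 (SE 0.05). The edgeR adjusted p of the 10 partners with the smallest p lay between 0.116 and 0.149. The remaining 10 past the unadjusted threshold were 3 lower and 7 higher.

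Leaving out 1 mouse at a time preserved the direction of all 10 members past the unadjusted threshold. These members were chosen by that threshold on the same mice, so their direction had little room to turn. *Nrp1*, *Nrp2*, *Sema3b*, *Sema4c* and *Plxna2* kept an unadjusted p below 0.05 in each of the 12 fits. *Sema4f* kept it in 11, *Sema6b* in 10, *Sema5a* in 9, *Plxnb2* in 6 and *Sema4d* in 5. The count of lower members, 6 with all mice, was 4 without WT replicate 2 and also 4 without *Tet2*-KO replicate 1, 2, 3 or 6.

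**Figure D5:**
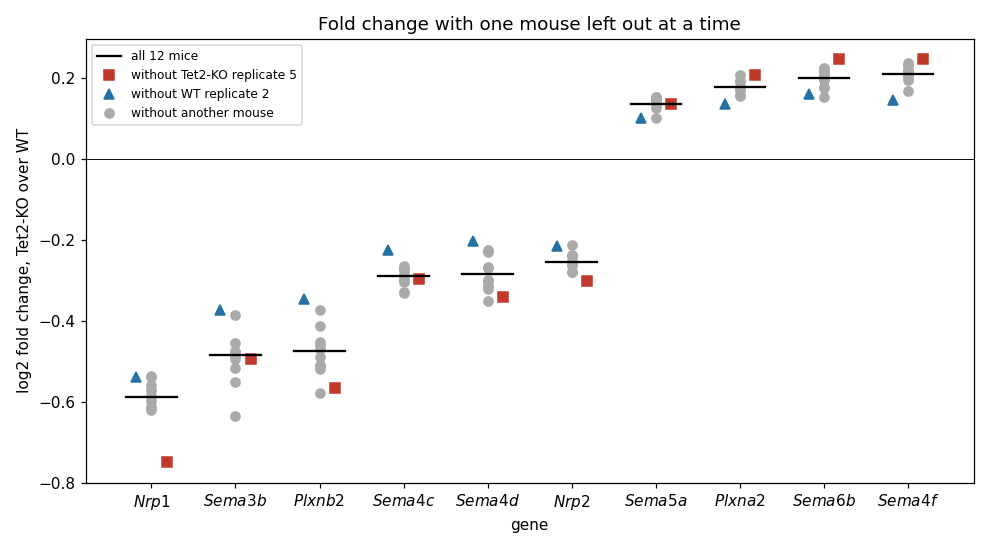
Log2 fold change (*Tet2*-KO over WT) of the 10 members with an unadjusted p below 0.05, with all 12 mice (bars) and with 1 mouse left out (points; squares without *Tet2*-KO replicate 5, triangles without WT replicate 2). All points stay on the side of 0 of the bar, and *Nrp1* moves from -0.59 to -0.75 without *Tet2*-KO replicate 5. The members were chosen on the same mice, so their side had little room to change.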

How the data were processed

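Total RNA from the brains of 12 mice was depleted of ribosomal RNA and sequenced as paired reads. Per the labels' processing notes, Trimmomatic 0.36, STAR 2.5.2b and featureCounts of Subread 1.5.2 were used with the mm10 build. The authors deposited raw read counts per gene, without normalization; the strand setting is not given in the sources used here, and the kit does not mark strand. Symbols, positions and merged exon lengths came from GENCODE M21, which is on the same build.

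In R 4.3.3, genes kept by filterByExpr were scaled by TMM and compared between the groups by edgeR 4.0.16 (glmQLFit with robust set, then glmQLFTest) on all 12 mice without covariates. P-values were adjusted by Benjamini-Hochberg over all genes tested, with a threshold of 0.05. Intervals are 95%, the standard error times the t quantile. DESeq2 1.42.0, limma 3.58.1 and other scalings and filters were alternatives, and the scripts were tested on simulated data. The members and lists were chosen with earlier results of these data known. Every member was named, with single mice for those past an unadjusted p of 0.05 and for the highest level per length in each class. Of the partner genes, the 10 with the smallest p were named, apart from 1 that is not reported here. Members had 1035 to 46890 counts over the 12 mice, and for the least abundant ones counting error is part of the spread given. Intervals give the uncertainty of the group difference, judged from the spread between these mice.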

Additional observations from a re-analysis of the deposited data

Results flagged for a closer look

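A sample was singled out where, in a group of 6, the highest or lowest mouse lay farther from the nearest other mouse, relative to the group's range, than Dixon's 95% critical value. Chance gives such a mouse in about 1 in 20 groups. Of 124 groups checked, 18 had one, and 11 of these were WT replicate 2. Of the 62 groups of members, 6 had one.

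*Nrp1* was at 97.2 CPM in *Tet2*-KO replicate 5, and at 51.3 to 62.1 CPM in the other *Tet2*-KO mice. WT replicate 2 was the lowest WT mouse for *Plxna4* (170.9 CPM, others 217.5 to 239.8) and *Sema4f* (28.47 CPM, others 37.27 to 40.16), and the highest for *Plxnb2* (295.6 CPM, others 173.5 to 217.3). *Plxnc1* was lowest in *Tet2*-KO replicate 3 (88.43 CPM, others 93.68 to 96.54), and *Sema5a* was highest in *Tet2*-KO replicate 6 (127.1 CPM, others 109.0 to 113.8).

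Among partner genes, WT replicate 2 was the highest WT mouse for *Dpysl3* (107.3 CPM), *Itgb1* (129.9 CPM) and *Itga1* (31.06 CPM), and *Tet2*-KO replicate 6 was the highest of its group for *Ranbp9* (99.86 CPM). Among marker lists, WT replicate 2 was lowest for neurons (3805 CPM). It was highest for reactive astrocytes (3080 CPM), homeostatic microglia (1249 CPM), activated phagocytes (2044 CPM) and oligodendrocyte precursors (294.4 CPM). *Tet2*-KO replicate 5 was highest for activated phagocytes (1265 CPM), and *Tet2*-KO replicate 4 for the hypothalamus (67.69 CPM) and the choroid plexus (667.1 CPM).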

How the results depend on the processing

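The counts of members past the unadjusted threshold stayed within 1.5 times in the fits on all 12 mice, and ranged with 1 mouse left out from 4 to 7 lower and 3 to 5 higher. Members past the adjusted threshold went from 0 to 3 with DESeq2, 3 with limma-voom and 2 without both WT replicate 2 and *Tet2*-KO replicate 5, and from 0 to 5 with 1 mouse left out. Partner genes past it went from 0 to 3, 7 and 6, and from 0 to 10. All genes past it were 5 in edgeR, 898 with DESeq2, 1863 with limma-voom, 44 with no filter, 0 with at least 10 counts in every mouse, 0 with the replicate block, 1554 without both mice and 0 to 2257 with 1 mouse left out. The cause was not tested. Partner counts at the unadjusted threshold ranged from 7 to 14 lower and 5 to 10 higher.

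The replicate numbers did not pair the mice: correlations of same-numbered mice ran from -0.17 to 0.23, and 1 of 6 was above 0.1. With the replicate block, 7 members were lower and 4 higher.

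With 1 mouse left out, median log2 fold changes ranged from -0.03 to 0.01 for members, -0.10 to -0.01 for class 3, -0.01 to 0.04 for class 4, 0.10 to 0.15 for class 5, -0.04 to 0.02 for class 6, 0.06 to 0.11 for class A, -0.21 to -0.11 for class B and -0.53 to -0.38 for neuropilins. Signs had little room to turn in members past 0.05, and turned only in members not past it. With limma-voom these were *Plxnb1* (0.0048), *Sema4g* (0.018) and *Sema6a* (0.036). With upper quartile scaling they were *Plxnb1* (0.011), *Plxnc1* (0.015), *Sema4g* (0.013), *Sema6a* (0.027) and *Sema6d* (0.000865). Without both mice they were *Plxnb1* (0.023), *Sema3e* (-0.00711), *Sema3f* (0.0063), *Sema3g* (-0.00250), *Sema4g* (0.038), *Sema6a* (0.047) and *Sema6d* (0.023). With 1 mouse left out, the values ranged from -0.088 to 0.015 for *Plxnb1*, -0.0041 to 0.093 for *Plxnd1*, -0.016 to 0.12 for *Sema3g*, -0.048 to 0.012 for *Sema4g*, -0.041 to 0.027 for *Sema6a*, -0.063 to 0.013 for *Sema6c* and -0.070 to 0.012 for *Sema6d*. *Sema3e* kept its sign in those fits (0.0076 to 0.16).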
